A study of Homo sapiens with 6 samples.

Results

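The genes described here are PHF20 and its partners in the NSL (non-specific lethal) histone acetyltransferase complex, 9 genes that were chosen by symbol: PHF20, KAT8, KANSL1, KANSL2, KANSL3, MCRS1, OGT, WDR5 and HCFC1. All 9 were found among the 17452 genes of the deposited files, and all 9 passed the filter on low values, which left 11560 genes for testing. RNA was sequenced from MDA-MB-231, an established human cell line from a triple-negative breast tumour, in 6 libraries. Of these, 3 came from cells given a control siRNA (siControl) and 3 from cells given siRNA against PHF20L1 (siPHF20L1), the paralog of PHF20. Both groups were transfected, and the labels name Lipofectamine 2000 and Lipofectamine RNAiMAX without saying which was used where. No siRNA sequence and no harvest time were given in the sources used here. Nothing shows that the 3 libraries of a group were separate cultures, so p-values reflect no more than the variation among these libraries, which may be technical.

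The NSL complex is built around KAT8 (also called MOF), an acetyltransferase that modifies lysines of histone H4 and of other proteins. The same enzyme also works in the smaller MSL complex, and its partners decide where it acts. The NSL complex is known for binding the promoters of widely expressed genes. PHF20 is its reader subunit, built from Tudor domains and a PHD finger, and recognises methylated lysines. PHF20L1 shares this domain plan. WDR5, HCFC1, OGT and MCRS1 also serve in other assemblies, namely histone H3 lysine 4 methyltransferases, HCFC1-containing transcription complexes, protein O-GlcNAc modification and the INO80 remodeller.

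Values are FPKM as deposited, that is, fragment numbers corrected for transcript length and library size. Log2 differences are siPHF20L1 minus siControl of log2(FPKM + 1), which understates changes of low genes, and a gene was called at an adjusted p under 0.05 (limma, Benjamini-Hochberg over all genes tested, two-sided). The FPKM of a library summed to 395250.9 to 416138.4. From the steps of the lowest values, depth was estimated at 17000000 to 17500000 fragments per library, which is approximate. Of 8 genes known to be high in this cell line, all were found, from 117.95 FPKM for CAV1 to 1644.01 FPKM for VIM over the 6 libraries, and 4 of them were called lower in siPHF20L1, where 24.7% of all genes tested were. Of 9 genes expected absent or low, the oestrogen receptor gene ESR1 was listed at 0 in every library and PGR at no more than 0.05 FPKM, while ERBB2 lay between 25.81 and 31.52 FPKM. Of the 5 of these 9 that were tested, 3 were called higher (ERBB2, the epithelial marker EPCAM and the smooth muscle actin gene ACTA2), where 34.0% of all genes tested were. EPCAM went from 2.2 to 4.31 FPKM and ACTA2 from 0.97 to 3.99 FPKM in the mean, and their part in the results below was not tested.

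The absolute log2 differences of the 9 NSL genes were at most 0.32. HCFC1 and MCRS1 were higher in siPHF20L1 libraries and none was lower, so that 2 of 9 were called higher, against 34.0% of all genes tested called higher and 24.7% called lower (limma). With the replicate number as a block in the fit, 4 were higher (HCFC1, MCRS1, KAT8 and WDR5) and 3 lower (PHF20, OGT and KANSL3), against 42.8% and 33.3% of all genes. This pairing by number was taken from these data and not from the labels, and the data set apart only the number 1. KANSL1 and KANSL2 passed in neither fit. With quantile normalization or median-ratio size factors, 1 was higher (HCFC1) and 2 were lower (PHF20 and KANSL3). The shares of all genes tested were then 29.0% higher and 30.2% lower with quantile normalization, and 29.7% higher and 29.6% lower with median-ratio size factors. In these bulk libraries, fewer cells that express a gene and less RNA per cell cannot be told apart. The median log2 difference of the 9 was 0.02, beside 0.05 over all genes tested, and their median absolute difference was 0.12, beside 0.28 over all genes tested. The largest among the 9, that of HCFC1, was exceeded by 44.2% of the genes tested. The siControl and siPHF20L1 values did not overlap for 1 gene that was higher, HCFC1, and 2 that were lower, PHF20 and KANSL3, while groups without overlap were seen in 36.7% (higher) and 27.0% (lower) of all genes tested.

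**Figure D1:**
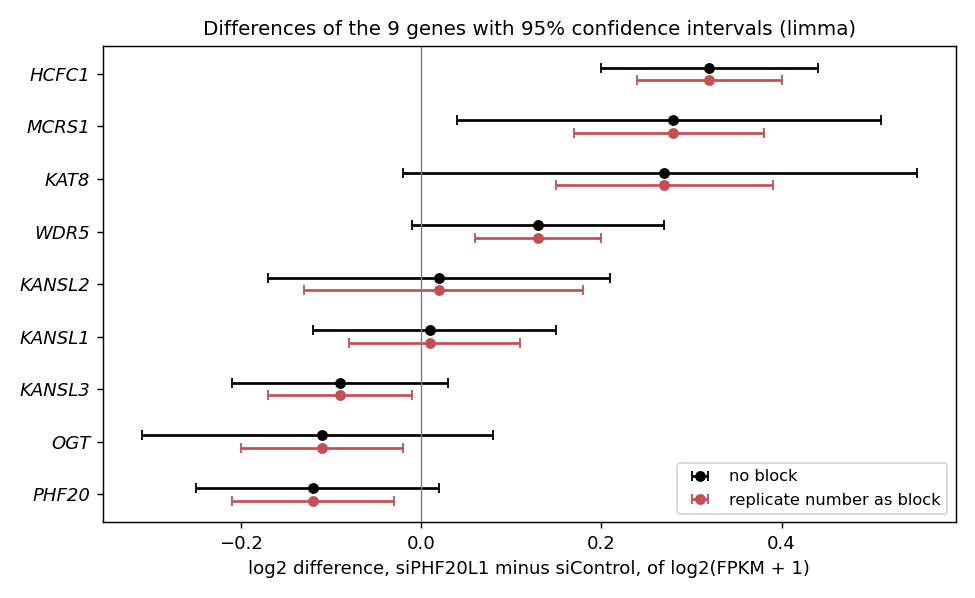
Log2 differences (x axis, siPHF20L1 minus siControl, of log2(FPKM + 1)) of the 9 genes (y axis) with 95% confidence intervals from limma, without a block (black) and with the replicate number as a block (red). The point of HCFC1 is the highest at 0.32 and that of PHF20 the lowest at -0.12, and the interval of each gene is narrower with the block.

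PHF20 (Entrez 51230), the methyl-lysine reader of the complex, stood at 15.99, 16.16 and 15.47 FPKM in the siControl libraries numbered 1, 2 and 3 and at 14.99, 14.55 and 14.17 FPKM in the siPHF20L1 libraries. Every siPHF20L1 value lay below every siControl value, and each same-numbered comparison was lower, by log2 differences of -0.09, -0.14 and -0.12. The means were 15.9 ± 0.359 and 14.6 ± 0.410 FPKM (SD, n = 3 each), a ratio of 0.918. The log2 difference of -0.12 had a 95% interval of -0.25 to 0.02 and was not called (limma, adjusted p = 0.116). It was called with the replicate block (limma, adjusted p = 0.0230), and in 4 of 16 alternatives in all, with a range of 0.0230 to 0.393. The spread of PHF20 among siControl libraries was 2.26% of its mean, and counting alone gives about 2.62% at the estimated 1460 to 1640 fragments of its 5922-nt transcript.

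PHF20L1 (Entrez 51105), the gene that was silenced, stood at 15.75, 12.48 and 12.73 FPKM in siControl and at 2.67, 2.31 and 2.74 FPKM in siPHF20L1 libraries. The ratio of means was 0.188, a fall that the log2 difference of FPKM + 1 understates. The knockdown amounted to -2.03 on the log2 scale (SE 0.10; limma, adjusted p = 1.46e-06), and each library followed its label. PHF20 made up 50.4%, 56.4% and 54.9% of the summed FPKM of both paralogs in siControl libraries, and 84.9%, 86.3% and 83.8% in siPHF20L1 libraries. The paralogs were thus at near equal FPKM in control cells, and PHF20 was the main one after the knockdown without being higher itself. The listed transcripts of PHF20L1 run from 2311 to 6237 nt, and that of PHF20 has 5922 nt. Which length the FPKM of PHF20L1 used was not given, and these shares depend on it. Their sum was 29.5 ± 1.93 FPKM in siControl and 17.1 ± 0.448 FPKM after the knockdown (SD, n = 3 each). No test was made of these shares, since PHF20L1 was the siRNA target. Between the GENCODE release 29 transcripts that match the accessions in the files, 1 of PHF20 and 3 of PHF20L1, the longest identical run was 18 nt. No run of 19 nt was shared.

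**Figure D2:**
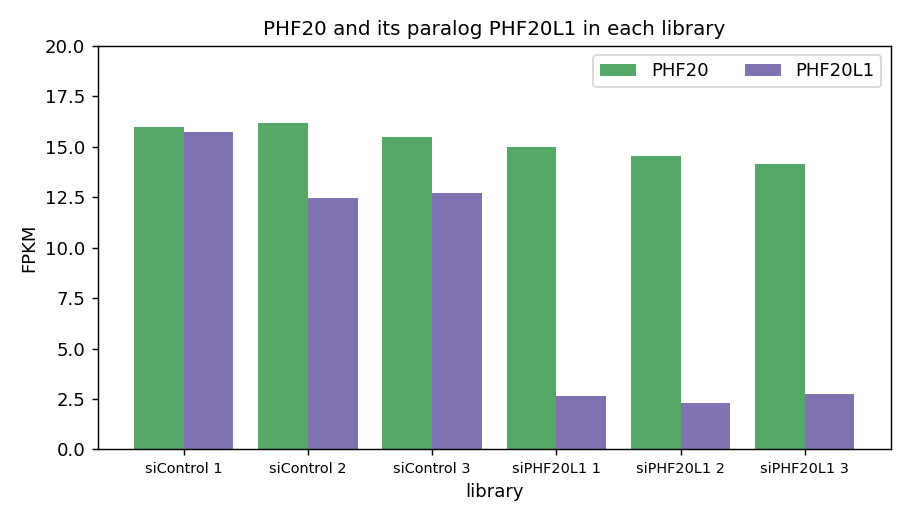
FPKM (y axis) of PHF20 (green) and PHF20L1 (purple) in each of the 6 libraries (x axis), with bars from 0. PHF20 lies between 14.17 and 16.16 FPKM throughout, and PHF20L1 drops from at least 12.48 FPKM in siControl to at most 2.74 FPKM in siPHF20L1 libraries.

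Sequence upstream of PHF20 and OGT is shown because both genes were lower with the replicate block and each has a single start in the RefSeq promoter table (GRCh38.p14). Neither was called without the block (limma, adjusted p = 0.116 and 0.279), and OGT was called in only 1 of 16 alternatives. The stretches run 5′ to 3′ on the plus strand, at chr20:35771765-35772003 (positions -250 to -12 from the start) for PHF20 and chrX:71532854-71533103 (positions -250 to -1) for OGT. Capitals mark the GC-box word GGGCGG, on either strand, and the NRF1 word GCGCATGC, on either strand.
PHF20: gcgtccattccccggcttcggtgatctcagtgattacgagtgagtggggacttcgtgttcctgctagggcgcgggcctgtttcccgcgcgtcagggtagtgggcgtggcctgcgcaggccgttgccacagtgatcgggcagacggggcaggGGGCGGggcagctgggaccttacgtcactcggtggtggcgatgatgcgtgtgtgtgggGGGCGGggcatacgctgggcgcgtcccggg
OGT: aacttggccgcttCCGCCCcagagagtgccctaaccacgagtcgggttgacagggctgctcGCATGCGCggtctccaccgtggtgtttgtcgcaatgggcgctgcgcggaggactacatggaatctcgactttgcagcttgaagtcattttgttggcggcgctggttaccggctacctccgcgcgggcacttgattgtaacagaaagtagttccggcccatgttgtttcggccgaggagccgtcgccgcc
PHF20 holds the GC-box word at -99 and -41, and OGT holds it at -237 and the NRF1 word at -189, both on the minus strand. The GC-box word occurred in 9 of the 13 RefSeq promoter windows found for 7 of the 9 genes, and in 45.0% of all 35116 windows of the same 300 bases (250 before to 50 after a start). Only 4 of these 7 genes had 1 window. WDR5, KANSL1 and KANSL3 had several, and some of WDR5 overlap, so the 13 windows are not independent. The NRF1 word was in 1 of the 13, that of OGT, and in 3.1% of all. KAT8 and HCFC1 had no entry in the table. The ETS word CCGGAAG was in 2 of the 13 windows (10.3% of all), and the E-box CACGTG in 4 (7.3% of all), in windows of PHF20, MCRS1, WDR5 and KANSL1. The E-box of PHF20 is at -8, outside the printed stretch. The YY1 word AAGATGGC, the word ACTACAA for ZNF143 and THAP11, and TATAAA were in none of the 13, against 2.9%, 2.8% and 11.5% of all windows. No 2 of these words overlap within the printed stretches, and a match is only a match of letters. The median GC content was 64.7% over the 13 windows and 58.7% over all.

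In control cells the 9 genes spanned a wide range of levels per length. WDR5 was highest at a mean of 44.0 FPKM, followed by HCFC1 (26.1), MCRS1 (22.6), OGT (20.3), KANSL3 (19.8), PHF20 (15.9), KANSL1 (12.7), KAT8 (10.5) and KANSL2 (6.73 FPKM). The siControl ranges of MCRS1 and OGT overlapped, as did those of OGT and KANSL3, and the other neighbours in this order were separate in the 3 libraries. The order was the same in siPHF20L1 libraries, where MCRS1 was separate from OGT and the ranges of KANSL1 and KAT8 overlapped. Among all genes tested, KANSL2 lay between percentiles 30.8 and 36.7 over the libraries and WDR5 between 84.1 and 85.9. The catalytic subunit KAT8 was thus among the lower members by FPKM, in the eighth place of 9. Which transcript length each FPKM used was not given, and this order depends on it.

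**Figure D3:**
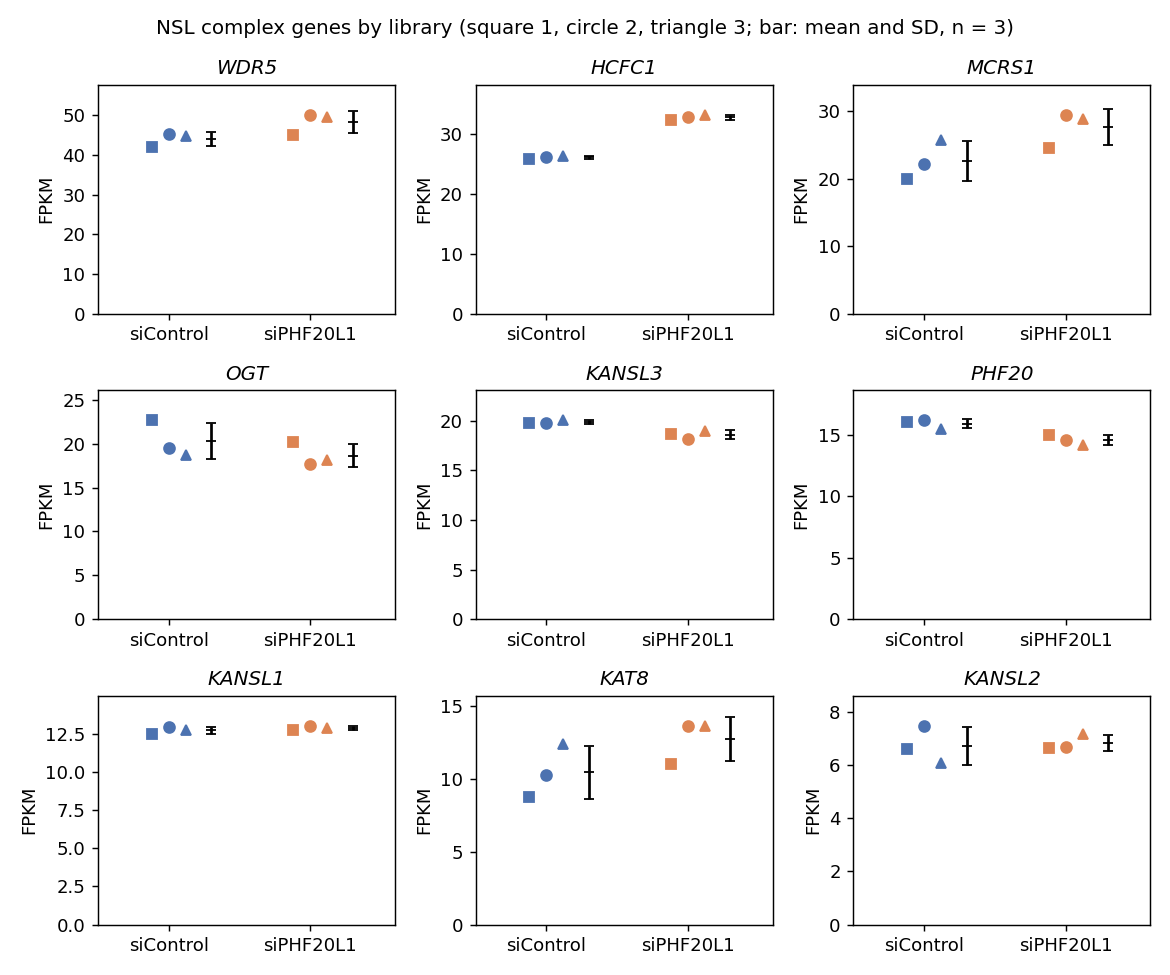
FPKM (y axes, each from 0) of the 9 genes in siControl (blue) and siPHF20L1 (orange) libraries, with squares, circles and triangles for the numbers 1, 2 and 3 and black bars for the mean and SD (n = 3). HCFC1 is the only gene of the 9 whose siPHF20L1 values all lie above its siControl values, and the siControl values of KAT8 and MCRS1 spread most as a share of their mean (17.4% and 13.0%).

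KAT8 (Entrez 84148), the acetyltransferase itself, stood at 8.75, 10.25 and 12.38 FPKM in siControl and at 11, 13.64 and 13.59 FPKM in siPHF20L1 libraries. The groups overlapped, because the siControl library numbered 3 was above the siPHF20L1 library numbered 1, although each same-numbered difference was positive (0.30, 0.38 and 0.12). The ratio of means was 1.22 and the log2 difference 0.27 (95% interval -0.02 to 0.55; limma, adjusted p = 0.0968). KAT8 was called in 4 of 16 alternatives. Its adjusted p was 0.00120 with the replicate block and 0.0179 in the libraries numbered 2 and 3 alone (limma). It was 0.0243 without siControl replicate 3 and 0.0280 without siPHF20L1 replicate 1 (limma), the libraries through which the groups overlapped. Without siControl replicate 1 the log2 difference of KAT8 was 0.16 (limma, adjusted p = 0.254, the highest of the alternatives). KAT8 had the widest spread among siControl libraries, 17.4% of its mean, where counting alone gives about 6.34% at 250 to 400 fragments.

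KANSL1 (Entrez 284058), the scaffold that binds KAT8 through its PEHE domain and also binds WDR5, was the steadiest between groups. It stood at 12.49, 12.92 and 12.77 FPKM in siControl and at 12.73, 13.02 and 12.85 FPKM in siPHF20L1 libraries. The log2 difference was 0.01 with a 95% interval of -0.12 to 0.15 (limma, adjusted p = 0.841), and with the block the interval was -0.08 to 0.11. The ranges of the groups overlapped. Part of KANSL1 is duplicated in some human haplotypes, so its level is uncertain. An antisense gene, KANSL1-AS1, also overlaps it, which adds to this if reads were counted without strand.

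KANSL2 (Entrez 54934), a smaller subunit that also contacts WDR5, stood at 6.62, 7.48 and 6.08 FPKM in siControl and at 6.65, 6.68 and 7.17 FPKM in siPHF20L1 libraries. The lowest and the highest value were both siControl libraries, and the log2 difference of 0.02 had a 95% interval of -0.17 to 0.21 (limma, adjusted p = 0.828). It was the lowest gene of the 9, at about 230 to 280 fragments, where counting alone gives 6.65% against a siControl spread of 10.5%.

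KANSL3 (Entrez 55683), a subunit with a hydrolase-like fold, stood at 19.80, 19.72 and 20.03 FPKM in siControl and at 18.66, 18.12 and 18.96 FPKM in siPHF20L1 libraries. The groups did not overlap, and the ratio of means was 0.936. The SD of the siControl values was 0.811% of their mean, the smallest such spread of the 9 and below the 2.47% that counting alone gives. The log2 difference of -0.09 was not called (95% interval -0.21 to 0.03; limma, adjusted p = 0.180). It was called with the replicate block (limma, adjusted p = 0.0484), with quantile normalization (0.0389) and with median-ratio size factors (0.0377), within a range of 0.0377 to 0.471 over 16 alternatives. Its log2 difference was -0.15 under both of these scalings.

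MCRS1 (Entrez 10445), an FHA-domain protein shared with the INO80 remodeller, rose from 22.6 ± 2.94 to 27.6 ± 2.68 FPKM (SD, n = 3 each). It stood at 19.95, 22.17 and 25.77 FPKM in siControl and at 24.54, 29.47 and 28.84 FPKM in siPHF20L1 libraries. The groups overlapped in the same place as those of KAT8, with siControl replicate 3 above siPHF20L1 replicate 1. The ratio of means was 1.22 and the log2 difference 0.28 (95% interval 0.04 to 0.51; limma, adjusted p = 0.0442). This call was close to the threshold and held in 7 of 16 alternatives, with the adjusted p of MCRS1 between 0.000308 (with the replicate block) and 0.132 (limma). It was lost without siControl replicate 1 (0.111), without siControl replicate 2 (0.111), without siPHF20L1 replicate 2 (0.132), without siPHF20L1 replicate 3 (0.131), without the filter on low values (0.0795), after quantile normalization (0.0999) or median-ratio scaling (0.116), without an intensity trend (0.0523) and with the libraries numbered 2 and 3 averaged (0.113). KCNH3, at a mean of 0.16 FPKM, overlaps MCRS1 on the opposite strand.

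WDR5 (Entrez 11091), a WD40-repeat protein that holds together both NSL and H3 lysine 4 methyltransferase complexes, stood at 42.02, 45.29 and 44.75 FPKM in siControl and at 45.01, 50.08 and 49.63 FPKM in siPHF20L1 libraries. Only the siPHF20L1 library numbered 1 fell within the siControl range. The ratio of means was 1.10 and the log2 difference 0.13 (95% interval -0.01 to 0.27; limma, adjusted p = 0.108). The adjusted p of WDR5 was 0.00444 with the replicate block, 0.00575 in the libraries numbered 2 and 3 alone and 0.0303 without siPHF20L1 replicate 1 (limma), within a range of 0.00444 to 0.426. Its log2 difference was 0.07 after quantile normalization and 0.06 after median-ratio scaling. An antisense gene, BX649632.1, overlaps WDR5.

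HCFC1 (Entrez 3054), host cell factor 1, a large co-regulator whose precursor is cut by OGT, rose from 26.1 ± 0.235 to 32.9 ± 0.433 FPKM (SD, n = 3 each). It stood at 25.87, 26.18 and 26.33 FPKM in siControl and at 32.39, 32.91 and 33.25 FPKM in siPHF20L1 libraries. The groups were far apart relative to their spread, and the same-numbered differences were nearly equal at 0.31, 0.32 and 0.33. That spread was 0.898% of the mean in siControl and 1.32% in siPHF20L1, both below the 1.59% that counting alone gives. The ratio of means was 1.26 and the log2 difference 0.32 (SE 0.05, 95% interval 0.20 to 0.44; limma, adjusted p = 0.000741). HCFC1 was the only one of the 9 genes called in each of the 16 alternatives, with a highest adjusted p of 0.0242 (limma). It had the most fragments of the 9, about 3940 to 5140. An antisense gene, HCFC1-AS1, overlaps HCFC1, and whether counting used strand was not given in the sources used here.

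OGT (Entrez 8473), the O-GlcNAc transferase, stood at 22.67, 19.47 and 18.74 FPKM in siControl and at 20.20, 17.66 and 18.09 FPKM in siPHF20L1 libraries. The library numbered 1 was the highest of its group on both sides, and the groups overlapped. The ratio of means was 0.919 and the log2 difference -0.11 (95% interval -0.31 to 0.08; limma, adjusted p = 0.279). With the replicate block OGT was called lower (limma, adjusted p = 0.0247), the only one of 16 alternatives to do so, within a range up to 0.709. The log2 difference of OGT was -0.04 without siControl replicate 1, and -0.17 without siControl replicate 3 or without siPHF20L1 replicate 1. It was -0.17 after quantile normalization and -0.18 after median-ratio scaling.

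The 9 genes also varied by library number. KAT8 and MCRS1 followed each other across all 6 libraries, with MCRS1 at 2.28, 2.16 and 2.08 times the FPKM of KAT8 in siControl and 2.23, 2.16 and 2.12 times in siPHF20L1 libraries, a ratio that was chosen after the values were seen. In the libraries numbered 1, KAT8, MCRS1, WDR5 and, by less, KANSL1 and HCFC1 were the lowest of their group, and OGT was the highest, in both groups. The listed transcripts of KAT8 and MCRS1 are short, 1525 to 1789 nt and 1428 to 1928 nt, and those of OGT are 3310 and 5461 nt. Those of WDR5 are 3151 nt, of KANSL1 5147 to 5343 nt and of HCFC1 8869 nt. The lower values of KANSL1 and HCFC1 in the libraries numbered 1 were small beside counting errors of about 2.98% and 1.59%. Over the 3227 tested genes with transcripts under 2000 nt, library 1 was lower than the mean of libraries 2 and 3 by a median log2 difference of -0.08 in siControl and -0.04 in siPHF20L1, and over the 2118 genes above 5000 nt it was higher by 0.15 and 0.12. The part of transcript length in the values of these genes was not tested. Between the groups the median log2 difference was 0.04 to 0.07 in each of the 4 length classes.

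**Figure D4:**
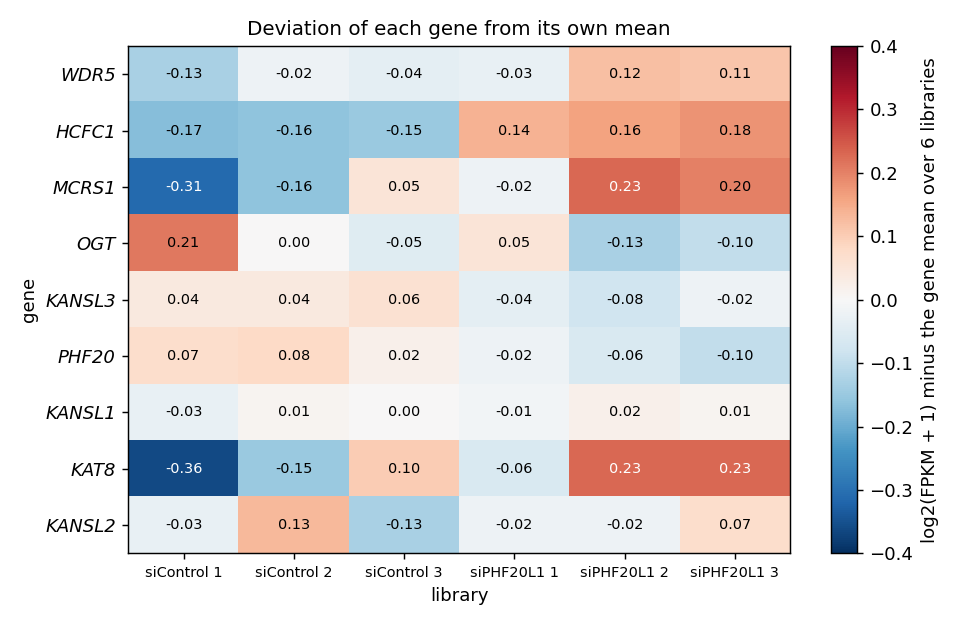
Deviation of log2(FPKM + 1) from the mean over 6 libraries (colour and printed value) for the 9 genes (rows) in each library (columns). KAT8 and MCRS1 are lowest in siControl 1, at -0.36 and -0.31, HCFC1 splits evenly by group at -0.17 to -0.15 against 0.14 to 0.18, and KANSL1 stays within -0.03 to 0.02.

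Lists of related genes were then described, which share a few genes with each other. Their counts stand beside 34.0% of all genes tested called higher and 24.7% called lower (42.8% and 33.3% with the replicate block). The first held paralogs of NSL genes. Of 8 genes, the silenced PHF20L1 and HCFC2, the relative of HCFC1, were lower and none was higher. HCFC2 fell from 3.93 ± 0.633 to 2.53 ± 0.159 FPKM (log2 difference -0.48; limma, adjusted p = 0.00356), opposite to HCFC1. KANSL1L stood at 1.72 and 1.68 FPKM in siControl and siPHF20L1, WDR5B at 1.39 and 1.57 FPKM, and neither was called. The other MYST-family acetyltransferase genes KAT5, KAT6A, KAT6B and KAT7 had log2 differences of -0.07, -0.01, -0.16 and -0.07 and were not called. With the replicate block KAT6B was called lower (limma, adjusted p = 0.0222).

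In the MSL complex, the other home of KAT8, MSL1 was higher and MSL2 and MSL3 were not called. MSL1, the scaffold whose PEHE domain binds KAT8 as that of KANSL1 does, rose from 13.9 ± 0.995 to 21.8 ± 1.72 FPKM (log2 difference 0.62; limma, adjusted p = 0.000221). MSL3 was at 27.5 and 28.3 FPKM and the ubiquitin ligase gene MSL2 at 6.58 and 6.16 FPKM. KAT8 stood at 0.180, 0.210 and 0.267 of the summed FPKM of MSL1, MSL2 and MSL3 in siControl and at 0.186, 0.248 and 0.248 in siPHF20L1 libraries. These ratios overlapped (0.219 ± 0.0441 and 0.227 ± 0.0359, SD, n = 3 each; exact permutation test, two-sided, p = 0.9, where 0.1 is the smallest this design allows).

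WDR5 and HCFC1 also serve the COMPASS complexes, which methylate lysine 4 of histone H3. Of 18 other COMPASS genes, 6 were higher, 8 lower and 4 not called (34.0% and 24.7% of all genes tested were higher and lower), with a median log2 difference of -0.19 beside 0.05 over all genes tested. Without siControl replicate 2 the higher genes were 3. With quantile normalization or median-ratio size factors, 4 were higher and 10 lower. The methyltransferase gene KMT2C rose from 7.88 ± 1.49 to 12.9 ± 1.91 FPKM and PAGR1, a partner of the KMT2C and KMT2D complexes, from 7.17 ± 0.210 to 11.4 ± 1.16 FPKM. SETD1B, another methyltransferase gene, fell from 11.4 ± 0.693 to 7.64 ± 0.426 FPKM (limma, adjusted p at most 0.00313 for these 3). Among the core partners of WDR5 in these complexes, ASH2L and DPY30 were lower, with log2 differences of -0.43 and -0.39, and RBBP5 was higher by 0.27 (limma, adjusted p = 0.000756, 0.000546 and 0.0368). They were chosen for mention after their values were seen, and RBBP5 passed in 7 of 16 alternatives.

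Of 14 other INO80 genes, which share MCRS1, 2 were higher, 4 lower and 8 not called. The lower genes were 7 with the replicate block, and 2 without siControl replicate 2 or without siPHF20L1 replicate 3. The ATPase gene INO80 rose from 8.60 ± 0.0702 to 11.9 ± 0.140 FPKM and INO80B from 12.2 ± 1.37 to 16.1 ± 0.697 FPKM. The deubiquitinase gene UCHL5 fell from 23.8 ± 0.974 to 18.3 ± 2.07 FPKM and NFRKB from 18.6 ± 0.115 to 15.3 ± 0.492 FPKM. The 4 changes had adjusted p-values of 0.00491 or lower (limma). Of 15 genes for partners of HCFC1, 4 were higher and 2 lower. The lower genes were 5 with the replicate block, 0 without siControl replicate 2, and 1 without siControl replicate 3 or without siPHF20L1 replicate 3. CREB3, a membrane-bound transcription factor that binds HCFC1, rose by a log2 difference of 0.75 to 49.4 ± 1.72 FPKM and E2F1 from 19.7 ± 1.45 to 32.4 ± 3.77 FPKM, while E2F4 (72.1 ± 4.58 to 61.3 ± 2.29 FPKM) and HCFC1R1 (133 ± 1.85 to 115 ± 8.91 FPKM) fell by log2 differences of -0.23 and -0.22 (limma, adjusted p = 1.43e-05, 0.000321, 0.0130 and 0.0177). ZNF143, a factor that recruits HCFC1 to promoters, was at 7.66 and 7.78 FPKM and was not called.

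Genes that make UDP-GlcNAc, the substrate of OGT, held the lowest log2 differences of the lists compared, apart from the silenced PHF20L1. Of 7 genes for this supply and for O-GlcNAc turnover, 4 were lower, 1 higher and 2 not called, with a median log2 difference of -0.44. GNPNAT1, an acetyltransferase of the pathway, fell from 29.4 ± 2.1 to 8.23 ± 1.14 FPKM and GFPT2, an isoform of the rate-limiting enzyme, from 15.8 ± 0.366 to 5.66 ± 0.257 FPKM. GFPT1, the other isoform, rose from 9.32 ± 0.975 to 14.7 ± 1.95 FPKM (limma, adjusted p = 2.61e-06, 1.28e-06 and 0.00116). OGA, which removes O-GlcNAc and is listed in the files under its older symbol MGEA5, stood at 23.9 and 23.5 FPKM (log2 difference -0.02; limma, adjusted p = 0.869).

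Among 10 other histone acetyltransferase genes, 3 were higher and 1 lower, where 3 were lower with the replicate block and without siPHF20L1 replicate 1. KAT14 rose from 3.55 ± 0.152 to 7.26 ± 0.458 FPKM and KAT2A from 30.8 ± 0.987 to 39.0 ± 0.708 FPKM, and KAT2B fell from 9.54 ± 0.516 to 7.38 ± 0.535 FPKM (limma, adjusted p = 2.28e-05, 0.000797 and 0.00510). Of 11 genes for deacetylases and acetyl-lysine readers, 6 were higher and 2 lower. SIRT1, a deacetylase that removes the KAT8 mark on lysine 16 of histone H4, fell from 11.6 ± 0.819 to 5.28 ± 0.344 FPKM, and the acetyl-lysine reader gene BRD2 from 95.4 ± 0.539 to 72.4 ± 3.62 FPKM. HDAC1 rose from 32.1 ± 1.75 to 50.1 ± 1.89 FPKM and BRD3 from 10.4 ± 0.190 to 15.3 ± 0.459 FPKM (limma, adjusted p at most 0.000358 for these 4). The deacetylase genes of this list thus went in both directions. SIRT2 rose from 24.2 ± 0.906 to 29.9 ± 0.887 FPKM (limma, adjusted p = 0.0021), and HDAC3 and HDAC4 were also higher. SIRT3, HDAC2 and HDAC6 were not called without the block. Of 11 genes for Tudor and other methyl-lysine readers, 2 were higher and 5 lower, PHF20L1 included. PHF1 rose from 29.4 ± 1.64 to 40.7 ± 2.04 FPKM and L3MBTL1 from 1.82 ± 0.0971 to 2.57 ± 0.164 FPKM, and UHRF1, which binds hemimethylated DNA, fell from 46.8 ± 1.41 to 31.1 ± 1.52 FPKM (limma, adjusted p = 0.000392, 0.00447 and 5.92e-05).

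**Figure D5:**
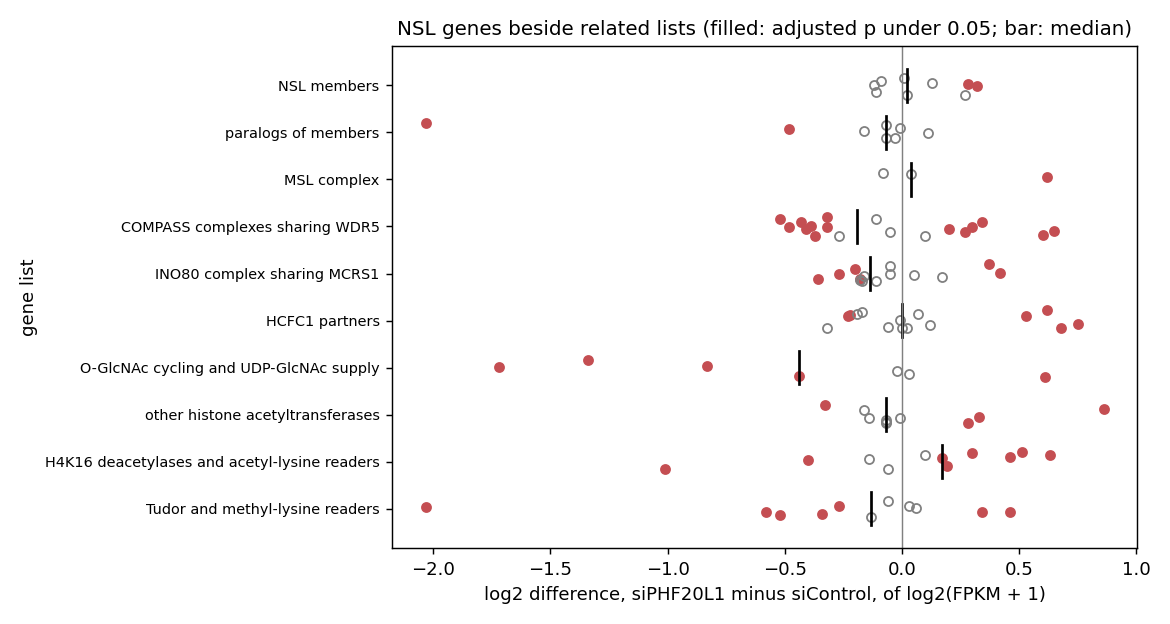
Log2 differences (x axis, siPHF20L1 minus siControl, of log2(FPKM + 1)) of the tested genes of each list (y axis), filled where the adjusted p of limma was under 0.05, with a black bar at the list median. The 9 NSL genes span -0.12 to 0.32, genes that supply UDP-GlcNAc reach -1.72, and the silenced PHF20L1, which is in 2 lists, lies at -2.03.

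The genes whose profile was most like that of PHF20 were ABHD10, EXOSC2 and PCGF3. Likeness was the root mean square difference over the 6 libraries after removal of each gene's own mean of log2(FPKM + 1), among 5019 genes of similar level. It was 0.0123 for ABHD10, a mitochondrial hydrolase gene, 0.0169 for EXOSC2, which encodes an exosome subunit, and 0.0184 for PCGF3, a Polycomb ring finger gene. ABHD10 stood at 16.13, 16.17 and 15.70 FPKM in siControl and at 15.20, 14.48 and 14.04 FPKM in siPHF20L1 libraries. A difference under 0.1 was found for 850 of the 5019 genes, so such closeness was common.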

How the data were processed

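The authors deposited 1 table per library with 1 FPKM per gene, per the file headers, written to 2 decimals under Entrez identifiers. GRCh37, HTSeq 0.6.0, TopHat2 2.1.1 and Bowtie 0.12.2 are named, without role or order, per the submitters' processing notes. How FPKM were computed, and whether counting used strand, was not given in the sources used here. FPKM were fitted as log2(FPKM + 1) with limma 3.58.1 (R 4.3.3), with an intensity trend and no block, for genes at 1 FPKM or more in at least 3 libraries, after the code was checked on simulated data. The members, gene lists and tests were chosen with earlier results of these data known. Genes named from lists were the 2 largest called differences in each direction. Uncalled genes, the core partners of WDR5 and the deacetylase genes SIRT2, HDAC3 and HDAC4 were named after their values were seen.

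Same-numbered libraries deviated together from their group means (correlations across genes 0.73, 0.44 and 0.42 for the numbers 1, 2 and 3), so the number was taken to pair them, from the data and not from the labels. siControl 3 with siPHF20L1 2 gave 0.49 and siControl 2 with siPHF20L1 3 gave 0.31, so the numbers 2 and 3 are not told apart. Deviations from a mean of 3 libraries sum to 0 for each gene. A shift of the libraries numbered 1 alone would therefore make the correlations among the numbers 2 and 3 positive. The values thus set apart only the number 1, and calls with the block rest on a pairing chosen from these same data. Lengths came from GENCODE release 29 through RefSeq accessions, for 98.1% of genes tested. Counting errors assume the depth estimated from FPKM steps and cover counting only. The exact test used scipy 1.17.1. Alternatives covered pseudocount, filter, scaling, block, trend and libraries.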

Additional observations from a re-analysis of the deposited data

How the results depend on the processing

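Over 16 fitted alternatives, HCFC1 kept its direction and its call. The count of NSL genes called higher was 2. It was 1 without the filter, after quantile normalization, after median-ratio scaling, without an intensity trend and with the libraries numbered 2 and 3 averaged. It was 3 with scaling to equal sums, and 4 with the replicate block and in the libraries numbered 2 and 3 alone. Leaving out 1 library at a time gave 1 to 4, the 4 being without siPHF20L1 replicate 1. The count called lower was 0, against 2 after quantile normalization, 2 after median-ratio scaling, 3 with the replicate block and 1 in the libraries numbered 2 and 3 alone. For these counts the cause was not tested. KANSL1 turned to -0.03 and -0.05 with quantile normalization and median-ratio size factors, and KANSL2 to -0.06 and -0.03. KANSL2 ranged from -0.04 to 0.09 with 1 library left out, below 0 without siControl replicate 3 and without siPHF20L1 replicate 3, and neither gene was called anywhere. The difference in the ratio of KAT8 to the MSL genes was 0.00858, and -0.0109 to 0.0325 with 1 library left out. Among the related lists, 4 INO80 genes were lower, against 7 with the replicate block and with the libraries numbered 2 and 3 alone, and 2 with those averaged, without siControl replicate 2 and without siPHF20L1 replicate 3. For HCFC1 partners 2 were lower, against 6 with median-ratio size factors, 5 with the block and in the libraries numbered 2 and 3, 0 with those averaged and without siControl replicate 2, and 1 without siControl replicate 3 or siPHF20L1 replicate 3. For other acetyltransferases 1 was lower, against 2 with quantile normalization, 3 with the block, in the libraries numbered 2 and 3 and without siPHF20L1 replicate 1, and 0 with those averaged. COMPASS genes higher were 6, against 3 with those libraries averaged and without siControl replicate 2. The cause was not tested.

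All 9 genes were measured well above the filter, and KAT8 and KANSL2, with the fewest fragments, had the largest counting error. With 3 libraries per group, the 95% interval of the PHF20 difference (-0.12) was -0.25 to 0.02, and -0.21 to -0.03 with the replicate block.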
